A study of Mus musculus with 26 samples.

Results

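Insig1, Srebf2, Hmgcs1, Idi1, Sqle, Lss and Nsdhl are 7 genes of cholesterol synthesis and sterol sensing. They were taken from the 55471 genes of the count table by their GENCODE M21 symbols. These genes, and the further gene lists below, were chosen with earlier results of these data known. Their counts beside the shares of all genes are thus descriptions and no test of the lists. All 7 passed the filter on low counts, which kept 18412 genes for testing. RNA-seq counted their transcripts in 26 libraries from KH2, a line of mouse embryonic stem cells (ESCs), on days 0, 2 and 4 of differentiation with retinoic acid, a vitamin A derivative that drives ESCs out of pluripotency. There were 9 groups: cells labelled NAP1L1 alpha knock-out (alphaKO) on days 0, 2 and 4, cells labelled NAP1L1 knock-out (fullKO) on the same days, and wild-type cells (WT) on the same days. Each group had 3 libraries except fullKO on day 0, which had 2. The questions were whether these genes differed between the knockout cells and WT on each day, between the knockouts, and in their change over the days. NAP1L1 is a histone chaperone for H2A and H2B, and the counts are per gene, so the alpha form alone cannot be read from them.

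All alphaKO libraries share a name prefix, and so do all fullKO libraries, so each genotype may stand for 1 line, and line and genotype cannot be told apart. Nothing in the labels ties replicates to separate cultures, so a p-value here speaks to the spread among these particular libraries, which may be technical. The alphaKO and fullKO values against WT share the WT libraries. In bulk RNA, fewer cells of a type and less RNA per cell cannot be told apart.

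Cholesterol is built from acetyl-CoA, by way of mevalonate and isoprenoid units to squalene, and then through lanosterol and a chain of demethylations, reductions and isomerisations. Its supply is sensed in the membrane of the endoplasmic reticulum. When sterols are plentiful, INSIG proteins hold the SCAP-SREBP complex there; when sterols run low, the complex travels to the Golgi, where proteases release the transcription factor part of SREBP2, which switches on the genes of synthesis and uptake. INSIG1 is itself a target of this circuit, so its transcript is often read as a gauge of SREBP activity.

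On GRCm38, all 7 genes lie on the plus strand. Insig1, a sensor, is on chromosome 5 (28071363 to 28078662), and Srebf2, which encodes SREBP2, is on chromosome 15 (82147181 to 82205379). Hmgcs1, HMG-CoA synthase of the mevalonate arm, is on chromosome 13 (119690379 to 119708260), and so is Idi1, isopentenyl-diphosphate isomerase (8885501 to 8892451). Of the sterol arm, Sqle, squalene epoxidase, is on chromosome 15 (59315077 to 59331192), Lss, lanosterol synthase, is on chromosome 10 (76531588 to 76557138), and Nsdhl, a sterol dehydrogenase that takes part in removing methyl groups from the ring, is on chromosome X (72918557 to 72958514).

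Promoter sequences from RefSeq (GRCm38.p6) matched 6 of the 7 genes by symbol. The windows span 250 bases before the start site to 50 after it. Stretches upstream of transcription are shown for 4 genes: Srebf2 and Insig1 as the regulators, Lss as the enzyme furthest above WT in alphaKO on day 4, and Hmgcs1 as the gene whose window held the letters of the sterol regulatory element. Capitals mark CCAAT (the NF-Y motif; it reads ATTGG on the other strand), CACGTG (the E-box), and the sterol element as TCACNCCAC or in the shorter form TCACCCCA; GGGCGG, the Sp1 motif, was counted but left in lower case. The stretches are chr5:28071162-28071362 for Insig1, chr15:82147019-82147180 for Srebf2, chr13:119690101-119690350 for Hmgcs1 and chr10:76531355-76531587 for Lss, all on the plus strand.
Insig1: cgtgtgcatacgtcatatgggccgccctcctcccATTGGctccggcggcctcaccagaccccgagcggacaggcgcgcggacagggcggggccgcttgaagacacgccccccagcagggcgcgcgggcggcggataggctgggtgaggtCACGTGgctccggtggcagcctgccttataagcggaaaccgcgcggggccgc
Srebf2: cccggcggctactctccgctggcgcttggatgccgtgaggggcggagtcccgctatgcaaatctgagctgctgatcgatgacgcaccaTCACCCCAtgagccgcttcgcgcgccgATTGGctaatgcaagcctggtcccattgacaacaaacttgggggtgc
Hmgcs1: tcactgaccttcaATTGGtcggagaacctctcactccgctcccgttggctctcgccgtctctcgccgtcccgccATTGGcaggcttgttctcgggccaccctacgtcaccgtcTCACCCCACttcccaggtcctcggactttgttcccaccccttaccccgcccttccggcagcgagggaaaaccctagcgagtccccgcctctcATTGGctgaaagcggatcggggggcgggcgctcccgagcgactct
Lss: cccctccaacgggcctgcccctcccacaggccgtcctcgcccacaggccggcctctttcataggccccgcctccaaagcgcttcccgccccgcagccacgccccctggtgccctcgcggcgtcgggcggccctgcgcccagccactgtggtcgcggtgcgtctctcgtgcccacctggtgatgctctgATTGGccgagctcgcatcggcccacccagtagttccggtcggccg
Both strands of the 300-base windows were searched. TCACNCCAC was found in 1 of the 6 windows, that of Hmgcs1, and in 1.24% of all 32851 windows of the table. TCACCCCA, a form added after the windows were read, was in the windows of Hmgcs1, where it lies inside the longer match, and Srebf2, against 1.56% of all windows. CCAAT was in 6 of 6 windows against 37.4% of all, and GGGCGG in 6 of 6 against 35.7%. The Insig1 window alone of the 6 held CACGTG, which 7.15% of all windows hold. A match says only that these letters are there.

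Total counts ran from 13537267 to 20569706 per library. Nap1l1, the targeted gene, averaged 599 CPM (counts scaled to the library's size, TMM-corrected) in alphaKO and 399 CPM in fullKO against 1025 CPM in WT on day 0, and was called lower in both knockouts on every day. ESC markers (Pou5f1, Sox2, Nanog, Zfp42, Esrrb and Dppa5a) were all detected and summed to 2578 CPM or more on day 0. On day 4 their sum was 253.8 to 272 CPM in alphaKO and 380.4 to 400.3 CPM in fullKO, against 67.7 to 76.5 CPM in WT. Fibroblast markers, all 6 of them detected, summed on day 4 to 635 to 722 CPM in alphaKO and 513 to 558 CPM in fullKO, against 1281 to 1362 CPM in WT. The 3 collagens of that list carried the lower sums: Pdgfrb and Dcn in alphaKO overlapped WT, and in fullKO Pdgfrb was above WT and Dcn below it. Neural markers, again all 6 detected, summed to 376 to 399 CPM in alphaKO and 297 to 334 CPM in fullKO, against 637 to 726 CPM in WT. Nes carried that difference, with 221 to 284 CPM in alphaKO and 213 to 252.5 CPM in fullKO against 549.9 to 633 CPM in WT. By contrast, Sox1, Pax6, Elavl3 and Map2 in alphaKO lay above every WT library. In fullKO Elavl3 and Map2 lay above every WT library and Pax6 below, while Sox1 and Tubb3 overlapped WT. The 6 endoderm markers summed to 192 to 201 CPM in alphaKO and 152 to 166 CPM in fullKO, against 122 to 134 CPM in WT. Gata4, Sox17 and Sox7 carried the higher sums, whereas Gata6, the most abundant of the 6 in WT, overlapped WT in both knockouts. Of the markers of hepatocytes, cells rich in this pathway, Serpina1a and Cyp3a11 were at 0 in every library and the sum of all 5 stayed at or below 2.68 CPM. The part of these markers in the values below was not tested.

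On day 4 all 7 genes were higher in alphaKO than in WT, and no library of either group overlapped the other. Such separation of libraries was not counted over all tested genes, here or below, so nothing is read from it. Insig1 and Lss stood furthest above WT and Srebf2 least. By edgeR's quasi-likelihood test with Benjamini-Hochberg adjustment over all genes (adjusted p under 0.05, the rule behind every call here), 7 of 7 were called higher, where 28.7% of all tested genes were called higher, 24.0% lower and 52.7% in either direction. The median log2 fold change of the 7 genes was 0.85, against 0.06 over all genes tested. In fullKO on day 4, 5 of 7 were called higher than WT, where 25.1% of all genes were called higher, 24.5% lower and 49.6% in either direction, with a median of 0.25 against 0.02 over all genes.

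Of the regulators on day 4, Insig1 stood at 157, 172 and 176 CPM in alphaKO and at 109.8, 117 and 108 CPM in fullKO, against 61.4, 73.1 and 73.9 CPM in WT. The 3 genotypes did not overlap: alphaKO was highest and WT lowest. The log2 fold change was 1.27 ± 0.06 in alphaKO (SE; edgeR adjusted p = 2.82e-23) and 0.68 ± 0.06 in fullKO (edgeR adjusted p = 7.65e-14). Srebf2 stood at 412, 417 and 434 CPM in alphaKO and at 326, 354 and 344 CPM in fullKO, against 324, 350.1 and 362 CPM in WT. Here the alphaKO libraries lay above all others, while fullKO and WT overlapped. Its log2 fold change over WT was 0.28 ± 0.05 in alphaKO (edgeR adjusted p = 1.96e-06) and −0.02 ± 0.05 in fullKO (edgeR adjusted p = 0.797). The fullKO value turned to 0.09 when libraries were scaled by their totals alone, to 0.01 without fullKO replicate 1 and to 0.02 without WT replicate 3, and was called in none of these.

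In the mevalonate arm, Hmgcs1, which condenses acetoacetyl-CoA with acetyl-CoA, stood on day 4 at 554, 581 and 552 CPM in alphaKO and at 436, 418 and 435 CPM in fullKO, against 366, 354 and 361 CPM in WT. The 3 genotypes did not overlap. It was higher than WT by 0.64 ± 0.04 in alphaKO (edgeR adjusted p = 5.13e-19) and by 0.25 ± 0.04 in fullKO (edgeR adjusted p = 2.76e-07) on the log2 scale. Idi1, which interconverts the isoprenoid building blocks, was the least abundant of the 7, per length too, at 15.8, 19.5 and 18.8 CPM in alphaKO and 13.1, 12.0 and 13.0 CPM in fullKO, against 10.7, 7.86 and 10.7 CPM in WT. Each genotype again kept to its own range. The log2 fold changes were 0.89 ± 0.11 in alphaKO (edgeR adjusted p = 5.61e-09) and 0.38 ± 0.12 in fullKO (edgeR adjusted p = 0.00601). Without WT replicate 2, the lowest library, the fullKO value was 0.24 and was no longer called, and 3 of 7 genes were called in fullKO in place of 5.

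In the sterol arm, Sqle, which makes squalene epoxide, stood on day 4 at 236, 240.0 and 238 CPM in alphaKO and at 162, 169 and 173 CPM in fullKO, against 162, 157 and 169 CPM in WT. The alphaKO libraries lay apart, and fullKO overlapped WT. Its log2 fold change was 0.55 ± 0.04 in alphaKO (edgeR adjusted p = 6.63e-16) and 0.05 ± 0.04 in fullKO (edgeR adjusted p = 0.373), a value that was 0.15 and called with library totals alone. Lss, which closes the ring to lanosterol, stood at 171, 183 and 183 CPM in alphaKO and at 111, 113 and 117 CPM in fullKO, against 79.5, 80.9 and 86.7 CPM in WT. No genotype overlapped another, and the fitted level in alphaKO was 2.17-fold that in WT. The log2 fold changes were 1.12 ± 0.05 in alphaKO (edgeR adjusted p = 1.08e-24) and 0.46 ± 0.05 in fullKO (edgeR adjusted p = 1.16e-11).

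Nsdhl stood on day 4 at 63.1, 71.8 and 64.0 CPM in alphaKO and at 41.5, 41.1 and 41.3 CPM in fullKO, against 35.8, 35.1 and 39.2 CPM in WT. All 3 ranges were apart, with fullKO close above WT. The log2 fold change was 0.85 ± 0.07 in alphaKO (edgeR adjusted p = 7.04e-15) and 0.17 ± 0.07 in fullKO (edgeR adjusted p = 0.0413). The fullKO call was lost with RLE scaling and with DESeq2 (0.16 each), with no filter on low counts (0.17), with a filter of 1 CPM (0.15), and without any 1 of 5 libraries: WT replicate 1 (0.15) or 2 (0.13), or fullKO replicate 1 (0.16), 2 (0.17) or 3 (0.17). The alphaKO calls of all 7 genes on day 4 held in every alternative run.

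**Figure D1:**
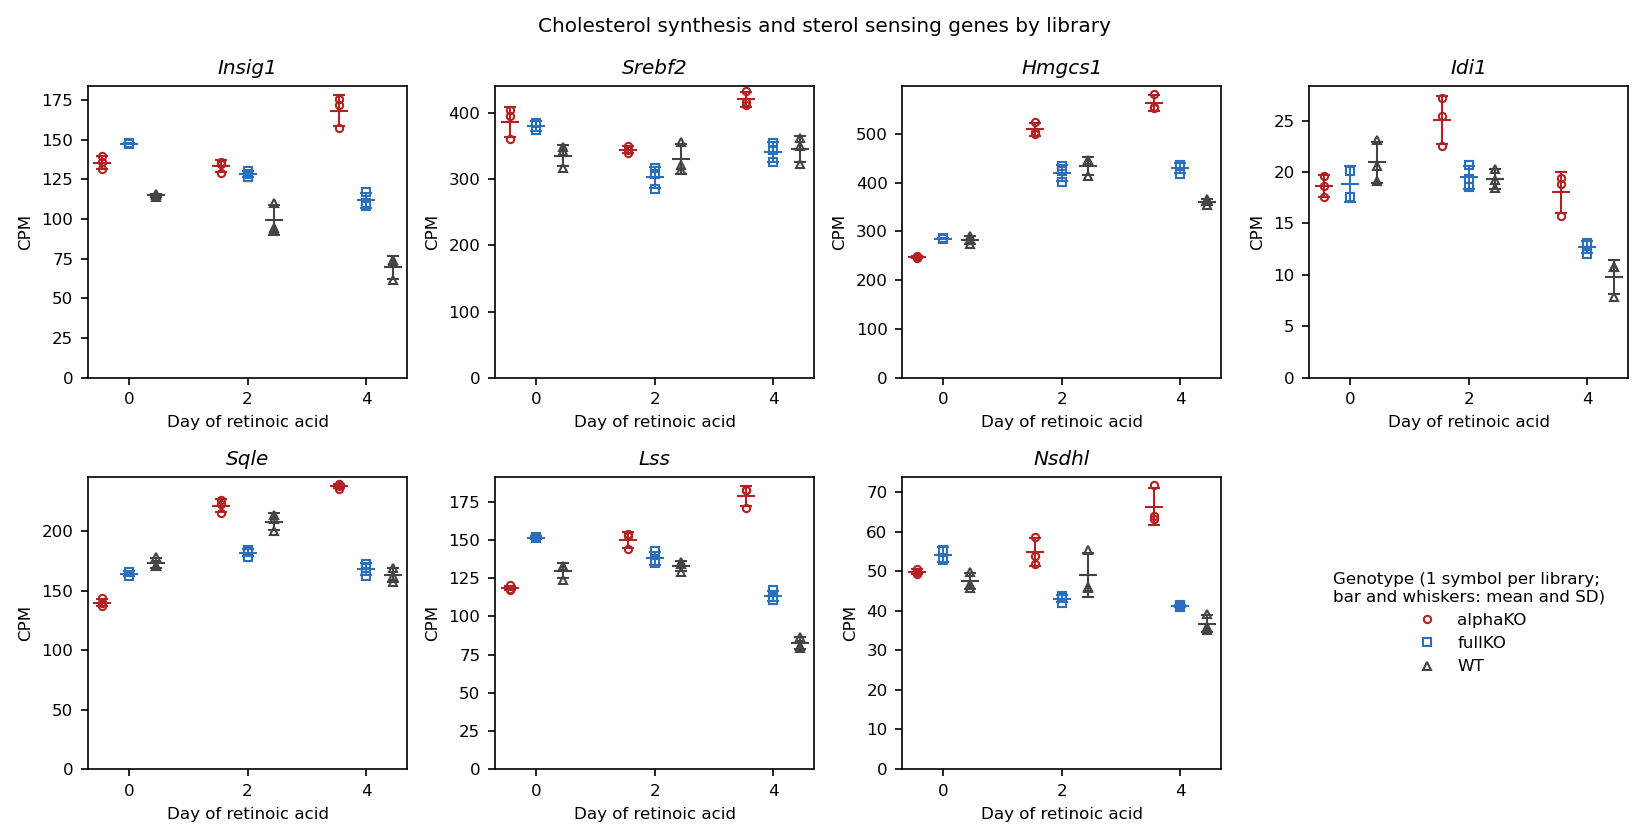
CPM of each of the 7 genes (y axis, scaled by TMM) on days 0, 2 and 4 of retinoic acid (x axis) in alphaKO, fullKO and WT; each symbol is 1 library, and bars and whiskers are the mean and SD of the group (n = 3; n = 2 for fullKO on day 0). On day 4 the alphaKO libraries lie above both other genotypes for all 7 genes, as in Insig1 with a mean of 168 CPM in alphaKO and 112 CPM in fullKO against 69.4 CPM in WT.

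Before retinoic acid, on day 0, the 7 genes did not move together in alphaKO. The regulators were higher than in WT and enzymes of both arms were lower: 2 of 7 were called higher and 3 lower, where 17.7% and 20.9% of all genes were called in these directions and 38.6% in either. Insig1 stood at 136, 139.8 and 131 CPM in alphaKO and at 147 and 148 CPM in fullKO, against 114, 116 and 115 CPM in WT. Both knockouts were above every WT library, by 0.24 ± 0.06 in alphaKO (edgeR adjusted p = 0.000421) and 0.36 ± 0.06 in fullKO (edgeR adjusted p = 4.88e-06) on the log2 scale. Srebf2 was higher by 0.20 ± 0.05 in alphaKO (edgeR adjusted p = 0.000532) and by 0.18 ± 0.05 in fullKO (edgeR adjusted p = 0.00733).

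Of the enzymes on day 0, Sqle stood at 144, 139 and 137 CPM in alphaKO and at 166 and 163 CPM in fullKO, against 178, 171 and 171 CPM in WT. The alphaKO libraries were the lowest of the 3 genotypes, at −0.31 ± 0.04 against WT (edgeR adjusted p = 3.01e-08). Hmgcs1 was at 248, 249 and 246 CPM in alphaKO and at 284 and 286 CPM in fullKO, against 289.5, 274 and 284 CPM in WT, which gave −0.19 ± 0.04 in alphaKO (edgeR adjusted p = 0.000101). Every alphaKO library was below both other genotypes, and fullKO overlapped WT. Idi1 (−0.17 ± 0.10) and Nsdhl (0.07 ± 0.07) were not called in alphaKO. Lss fell in alphaKO, with −0.13 ± 0.04 against WT (edgeR adjusted p = 0.0188), and was higher in fullKO, with 0.22 ± 0.05 (edgeR adjusted p = 0.000294). The alphaKO call of Lss was lost without WT replicate 1 or 3 or alphaKO replicate 2, at −0.12, −0.11 and −0.12, and with library totals alone, no filter on low counts or a fit of the compared groups alone, at −0.10, −0.13 and −0.10. ESC markers summed on day 0 to 3272 to 3318 CPM in alphaKO and 3570.0 to 3581 CPM in fullKO, against 2578 to 2670.0 CPM in WT. Not all of them were higher: Dppa5a was below every WT library in both knockouts, and Pou5f1 in alphaKO. Dppa5a stood at 467 to 485 CPM in alphaKO and 471 to 474 CPM in fullKO, against 608 to 623 CPM in WT. Fibroblast markers summed on that day to 978 to 1530.0 CPM in alphaKO and 194 to 292 CPM in fullKO, against 1888 to 2517 CPM in WT. The part of these markers was not tested.

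In fullKO on day 0, 4 of 7 genes were called higher than WT and 0 lower, where 16.2% of all genes were called higher and 33.9% in either direction. These were Insig1, Srebf2, Lss and Nsdhl, the last with 0.19 ± 0.07 (edgeR adjusted p = 0.0438). Hmgcs1 (0.01 ± 0.04), Idi1 (−0.15 ± 0.12) and Sqle (−0.08 ± 0.05) were not called, and the sign of Hmgcs1 turned with RLE, DESeq2 and library totals. With 2 fullKO libraries the count was fragile: 2 of 7 were called without fullKO replicate 1, and 2 without replicate 2, each time with the lone library assumed to vary like the other groups. Srebf2 lost its call in both cases and without WT replicate 3 (0.17, 0.16 and 0.14), and Nsdhl in both cases and without WT replicate 1 or 2 (0.13, 0.23, 0.16 and 0.18), as well as with RLE scaling, DESeq2, library totals (0.17 each) and other filters on low counts (0.18 and 0.20).

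By day 2 the higher genes in alphaKO were Insig1, Hmgcs1, Idi1 and Lss, and the enzymes that had been lower on day 0 were no longer so. Here 4 of 7 genes were called higher and 0 lower, where 19.9% of all genes were called higher, 20.3% lower and 40.2% in either direction. Insig1 stood at 129, 135 and 136 CPM in alphaKO and at 126, 130.0 and 128 CPM in fullKO, against 93.3, 94.2 and 110.2 CPM in WT. Both knockouts lay above WT and overlapped each other, with log2 fold changes of 0.42 ± 0.06 in alphaKO (edgeR adjusted p = 2.09e-08) and 0.37 ± 0.06 in fullKO (edgeR adjusted p = 2.98e-07). Hmgcs1 stood at 504, 525 and 499 CPM in alphaKO and at 402, 424 and 434 CPM in fullKO, against 413, 447 and 444 CPM in WT. Only alphaKO was apart from WT, by 0.23 ± 0.04 (edgeR adjusted p = 2.6e-06).

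Idi1 rose by 0.38 ± 0.10 in alphaKO over WT on day 2 (edgeR adjusted p = 0.00206), and Lss by 0.17 ± 0.04 (edgeR adjusted p = 0.00125). Sqle (0.09 ± 0.04, edgeR adjusted p = 0.0632) and Nsdhl (0.16 ± 0.07, edgeR adjusted p = 0.0512) were just short of the threshold. Sqle was called without alphaKO replicate 1 or WT replicate 3, each at 0.11, and Nsdhl without alphaKO replicate 2 (0.20) or WT replicate 3 (0.26). Srebf2, at 0.06 ± 0.05, was not called.

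In fullKO on day 2, Insig1 was the only one of the 7 called higher than WT, and 3 were called lower, where 23.8% of all genes were called higher, 23.8% lower and 47.6% in either direction. The lower genes were Sqle (−0.19 ± 0.04, edgeR adjusted p = 7.15e-05), Nsdhl (−0.19 ± 0.07, edgeR adjusted p = 0.0157) and Srebf2 (−0.12 ± 0.05, edgeR adjusted p = 0.0297). Sqle stood at 185, 178.5 and 183 CPM in fullKO against 200.4, 210.5 and 214 CPM in WT, with no overlap. Hmgcs1 (−0.05 ± 0.04), Idi1 (0.01 ± 0.10) and Lss (0.05 ± 0.04) were not called. Without WT replicate 3, the highest WT library for both Srebf2 and Nsdhl, 2 genes were called in place of 4. Srebf2 was then at −0.07 and Nsdhl at −0.10. Leaving out fullKO replicate 3 ended the call of Srebf2 (−0.08), and leaving out fullKO replicate 2 that of Nsdhl (−0.18). On day 2 ESC markers summed to 609 to 643 CPM in alphaKO and 1004 to 1112 CPM in fullKO, against 378.7 to 392.3 CPM in WT. Of these Dppa5a was lower in alphaKO, at 154 to 169 CPM against 189 to 201 CPM in WT, and overlapped WT in fullKO. Fibroblast markers summed to 222 to 278 CPM in alphaKO and 96.5 to 104.5 CPM in fullKO, against 585 to 649 CPM in WT, with Pdgfrb and Lum in alphaKO overlapping WT. Neural markers summed to 351 to 376.5 CPM in alphaKO and 248 to 274 CPM in fullKO against 453 to 479.9 CPM in WT. Nes carried that difference, with 181 to 188 CPM in alphaKO and 80.65 to 84.99 CPM in fullKO against 276 to 299 CPM in WT. Pax6 was below WT in both knockouts, and Tubb3 and Elavl3 in alphaKO, whereas Map2 was above WT in both and Sox1 in alphaKO. Endoderm markers summed to 106 to 122 CPM in alphaKO and 62.3 to 68.9 CPM in fullKO against 53.7 to 61.9 CPM in WT, although Sox17 was below WT in both. The part of these markers was not tested.

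**Figure D2:**
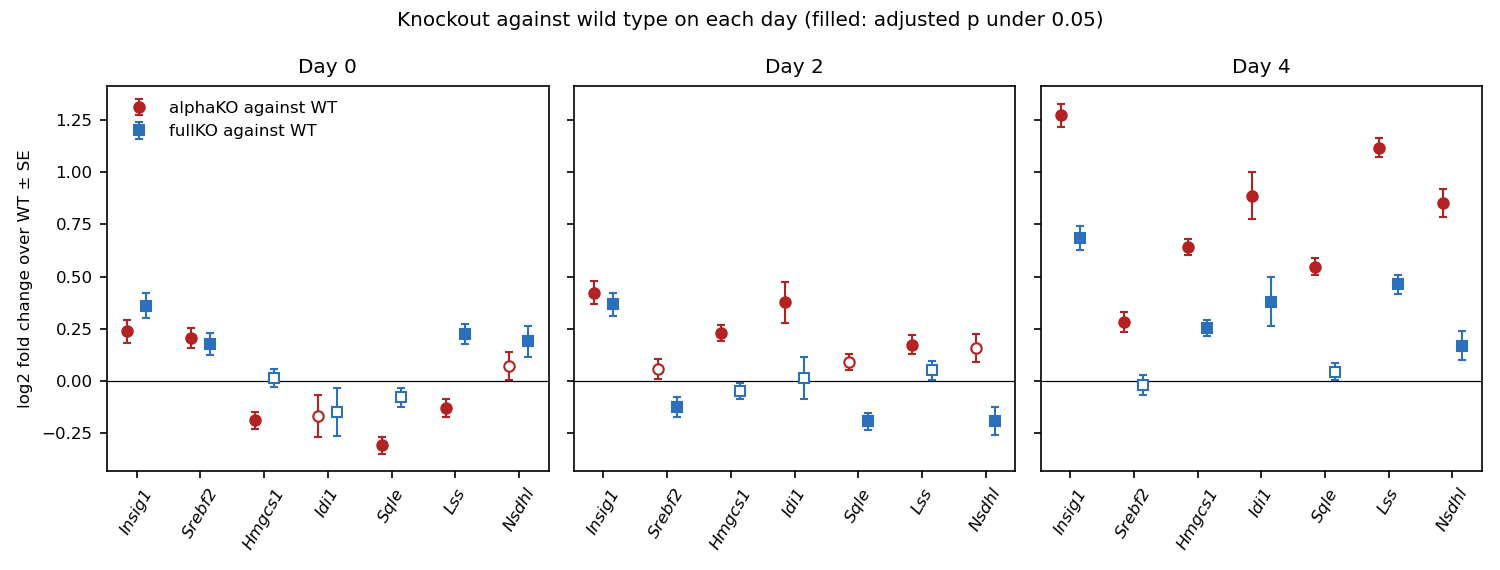
Log2 fold change over WT with its SE (y axis) for the 7 genes (x axis) on days 0, 2 and 4, in alphaKO and fullKO; filled symbols have an edgeR adjusted p under 0.05. On day 0 the alphaKO values run from −0.31 for Sqle to 0.24 for Insig1, and on day 4 they run from 0.28 for Srebf2 to 1.27 for Insig1.

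Set against each other, the knockouts changed order between day 0 and the later days. On day 0, 0 of 7 genes were called higher in alphaKO than in fullKO and 3 lower, where 14.4% of all genes were called higher, 14.6% lower and 29.0% in either direction. The 3 were enzymes: Lss (−0.35 ± 0.05, edgeR adjusted p = 1.82e-07), Sqle (−0.23 ± 0.05, edgeR adjusted p = 9.58e-05) and Hmgcs1 (−0.20 ± 0.04, edgeR adjusted p = 0.000292). On day 2, 6 of 7 were called higher in alphaKO and 0 lower, where 13.0% of all genes were called higher, 12.3% lower and 25.3% in either direction. Idi1 (0.36 ± 0.10) and Nsdhl (0.35 ± 0.07) differed most, and Insig1 was the exception (0.06 ± 0.05, edgeR adjusted p = 0.517). The call of Lss on day 2 (0.12 ± 0.04) was lost without alphaKO replicate 2 (0.11) or 3 (0.11), or fullKO replicate 1 (0.11) or 3 (0.11), and with library totals (0.09).

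On day 4, 7 of 7 were called higher in alphaKO than in fullKO, where 17.4% of all genes were called higher and 32.7% in either direction, and the median was 0.51 against 0.02 over all genes tested. Nsdhl (0.69 ± 0.07, edgeR adjusted p = 1.34e-11), Lss (0.66 ± 0.04, edgeR adjusted p = 2.7e-16) and Insig1 (0.59 ± 0.05, edgeR adjusted p = 4.51e-12) differed most, and Srebf2 least (0.30 ± 0.05, edgeR adjusted p = 1.79e-06). For each of the 7 the lowest alphaKO library was above the highest fullKO library, a separation that was not counted over all genes.

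Between days 2 and 4 most of the 7 genes fell in WT and rose in alphaKO, with fullKO between them. In WT, 6 of 7 genes were lower on day 4 than on day 2 and 0 were called higher, where 30.2% of all genes were called higher, 29.2% lower and 59.4% in either direction. In alphaKO, 6 of 7 were higher on day 4 than on day 2 and 1 was lower, where 30.1% of all genes were called higher, 28.1% lower and 58.2% in either direction. In fullKO, 1 was higher and 4 were lower, where 29.6% were called higher, 28.9% lower and 58.5% in either direction. With library totals alone, which moved the median of all genes by 0.09 there, 2 were higher and 2 lower.

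Insig1 averaged 136 ± 4.29 CPM on day 0, 133 ± 3.71 on day 2 and 168 ± 9.72 on day 4 in alphaKO (SD, n = 3 each). In fullKO the means were 148 ± 0.292 CPM (n = 2), 128 ± 1.82 and 112 ± 4.70 (n = 3 each), and in WT they were 115 ± 0.897 CPM, 99.2 ± 9.48 and 69.4 ± 7.02 (n = 3 each). From day 2 to day 4 Insig1 thus rose by 0.34 ± 0.05 in alphaKO (edgeR adjusted p = 5.87e-07), and fell by 0.20 ± 0.05 in fullKO (edgeR adjusted p = 0.00192) and by 0.51 ± 0.06 in WT (edgeR adjusted p = 2.8e-10). The fall in fullKO was 0.11 and no longer called with library totals alone.

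Lss followed the same order, with a rise of 0.25 ± 0.04 in alphaKO between days 2 and 4 (edgeR adjusted p = 2.53e-06), and falls by 0.28 ± 0.04 in fullKO (edgeR adjusted p = 4.61e-07) and 0.69 ± 0.05 in WT (edgeR adjusted p = 2.07e-17). Nsdhl rose by 0.28 ± 0.06 in alphaKO (edgeR adjusted p = 0.00025) and fell by 0.42 ± 0.07 in WT (edgeR adjusted p = 1.2e-06). Its value in fullKO was −0.06 ± 0.07, which turned to 0.03 with library totals and was called in neither case. Idi1 was the member that fell between days 2 and 4 in all 3 genotypes, by 0.47 ± 0.10 in alphaKO (edgeR adjusted p = 7.23e-05), 0.62 ± 0.10 in fullKO (edgeR adjusted p = 1.83e-06) and 0.98 ± 0.11 in WT (edgeR adjusted p = 2.98e-10).

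Hmgcs1 rose by 0.14 ± 0.04 in alphaKO (edgeR adjusted p = 0.00106) and fell by 0.27 ± 0.04 in WT (edgeR adjusted p = 4.8e-08) between days 2 and 4, with 0.03 ± 0.04 in fullKO, not called. Sqle rose by 0.10 ± 0.04 in alphaKO (edgeR adjusted p = 0.023), and fell by 0.11 ± 0.04 in fullKO (edgeR adjusted p = 0.013) and 0.35 ± 0.04 in WT (edgeR adjusted p = 2.64e-10). The alphaKO call was lost without alphaKO replicate 1 of day 2 (0.08) or replicate 2 of day 4 (0.10). The fullKO call was lost without fullKO replicate 1 of day 2 (−0.09) or of day 4 (−0.09), and with library totals (−0.02). Srebf2 rose by 0.29 ± 0.05 in alphaKO (edgeR adjusted p = 1.18e-06) and by 0.17 ± 0.05 in fullKO (edgeR adjusted p = 0.00219). In WT it was at 0.06 ± 0.05, not called, and at 0.12 and called without WT replicate 3 of day 2.

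From day 0 to day 2 Hmgcs1 and Sqle rose in every genotype. Hmgcs1 averaged 248 ± 1.62 CPM on day 0 and 509 ± 13.9 CPM on day 2 in alphaKO (SD, n = 3 each), a rise of 1.04 ± 0.04 (edgeR adjusted p = 5.43e-27). Its rise was 0.56 ± 0.04 in fullKO (edgeR adjusted p = 2.27e-15) and 0.62 ± 0.04 in WT (edgeR adjusted p = 6.39e-19). Sqle rose by 0.66 ± 0.04 in alphaKO (edgeR adjusted p = 3.76e-19), 0.15 ± 0.05 in fullKO (edgeR adjusted p = 0.00381; 0.12 and not called without fullKO replicate 2 of day 0) and 0.26 ± 0.04 in WT (edgeR adjusted p = 1.48e-07).

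In all, 4 of 7 genes were called higher and 1 lower on day 2 than on day 0 in alphaKO, where 34.5% of all genes were called higher, 33.5% lower and 68.0% in either direction. In fullKO 2 were higher and 4 lower, where 33.5% were called higher, 31.4% lower and 65.0% in either direction, and in WT 2 were higher and 1 lower, where 36.7% were called higher, 34.0% lower and 70.7% in either direction. Idi1 and Lss rose in alphaKO, by 0.43 ± 0.10 (edgeR adjusted p = 0.000183) and 0.34 ± 0.04 (edgeR adjusted p = 4.35e-09). Nsdhl, at 0.14 ± 0.07 in alphaKO, was called without alphaKO replicate 2 of day 2 (0.18). Most of the lower calls depended on the scaling, and the shares above are with TMM. With library totals alone, 5 genes were higher and 0 lower in alphaKO, 2 and 1 in fullKO, and 5 and 0 in WT. That scaling moved the median of all genes by 0.12 in alphaKO, 0.19 in fullKO and 0.18 in WT. Over the 22 comparisons it moved the median by −0.06 to 0.28. Under it fullKO Insig1, Lss and Nsdhl went to −0.01, 0.06 and −0.14, WT Insig1 to −0.03 and alphaKO Srebf2 to −0.05, with none called, while Srebf2 (0.16), Lss (0.21) and Nsdhl (0.23) in WT and Nsdhl in alphaKO (0.25) were called higher. The fullKO fall of Srebf2 (by 0.33 ± 0.05, edgeR adjusted p = 8.18e-07) kept its call with every alternative, while the fall of Lss in fullKO (by 0.14 ± 0.05) was also lost without fullKO replicate 1 of day 0 (−0.12).

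Between days 0 and 4, 6 of 7 genes were called higher and 0 lower in alphaKO, where 40.3% of all genes were called higher and 76.0% in either direction. In fullKO 1 was higher and 5 lower, where 39.5% were called higher, 34.6% lower and 74.1% in either direction, and in WT 1 was higher and 5 lower, where 40.7% were called higher, 36.7% lower and 77.4% in either direction. On library totals alone these splits were 3 higher and 2 lower in fullKO and 2 higher and 4 lower in WT. That scaling moved the median of all genes by 0.28 in fullKO and 0.16 in WT. Under it Sqle in fullKO was at 0.32, against 0.03 with TMM, and Srebf2 in WT at 0.20, against 0.04. The gene called higher with TMM was Hmgcs1 in both fullKO (0.59 ± 0.04) and WT (0.35 ± 0.04). In alphaKO it rose by 1.18 ± 0.04 (edgeR adjusted p = 1.83e-29). The smallest of these calls were lost when a library was left out: Srebf2 in alphaKO (0.12) without replicate 1 of day 0 (0.05) or replicate 3 of day 4 (0.10), and with DESeq2 (0.10), and Srebf2 in fullKO (−0.16, but 0.13 and called higher with library totals) without replicate 2 of day 0 (−0.15) or replicate 1 of day 4 (−0.12). Sqle in WT (−0.09, but 0.07 and not called with library totals) was lost without replicate 1 of day 0 (−0.07) or replicate 1 (−0.08) or 2 (−0.06) of day 4. With library totals Insig1 and Nsdhl in fullKO were at −0.11 each and not called, against −0.40 and −0.39 with TMM.

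**Figure D3:**
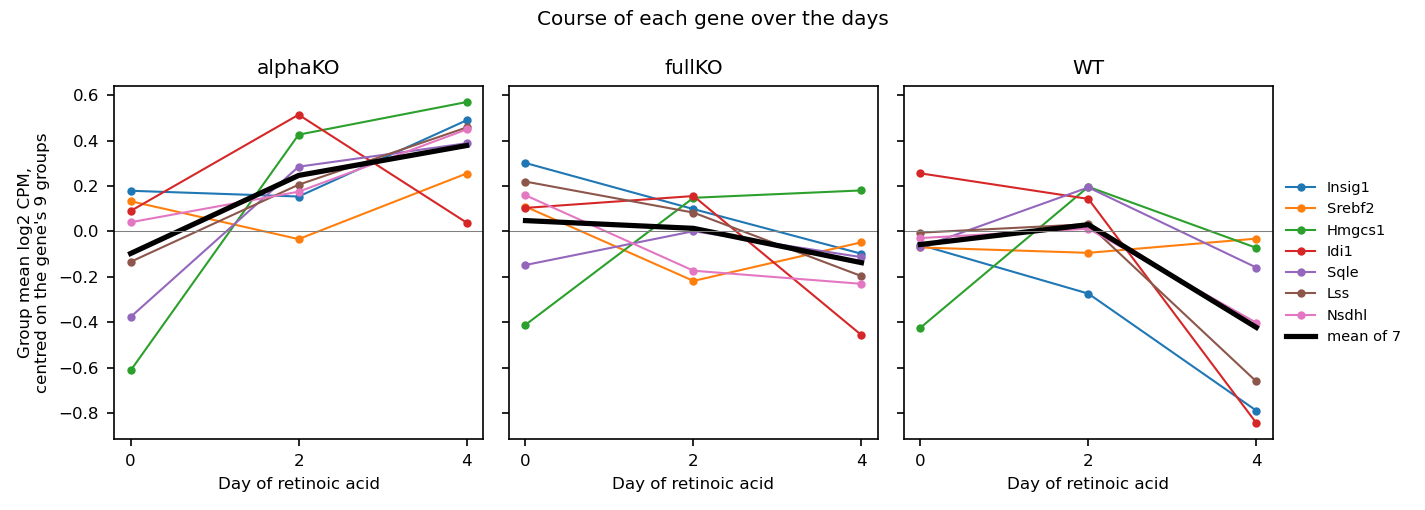
Group mean of log2 CPM of each gene, less that gene's mean over the 9 groups (y axis), on days 0, 2 and 4 of retinoic acid (x axis), in 1 panel per genotype; thin lines are the 7 genes and the thick line is their mean. On day 4 the thick line is at 0.38 in alphaKO and −0.14 in fullKO, against −0.42 in WT.

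The change itself was compared between each knockout and WT by an interaction contrast. Over days 0 to 4, 6 of 7 genes changed more upward in alphaKO than in WT and 0 more downward, where 24.2% of all genes were called higher and 44.0% in either direction. Lss differed by 1.25 ± 0.06 (edgeR adjusted p = 9.88e-21), Idi1 by 1.06 ± 0.15 (edgeR adjusted p = 1.45e-07) and Insig1 by 1.03 ± 0.08 (edgeR adjusted p = 6.1e-15). Srebf2 was the exception, at 0.08 ± 0.07 (edgeR adjusted p = 0.359). From day 0 to day 2, 4 of 7 were called higher in alphaKO and 0 lower, where 17.5% of all genes were called higher and 32.2% in either direction. The 4 were the enzymes Idi1, Hmgcs1, Sqle and Lss, and Insig1 was not called (0.18 ± 0.08, edgeR adjusted p = 0.0665; 0.27 and called without WT replicate 3 of day 2). Srebf2 was at −0.15 ± 0.07 (edgeR adjusted p = 0.099), and was called lower without WT replicate 1 of day 2 (−0.19) or alphaKO replicate 1 of day 0 (−0.20) and with library totals (−0.21).

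In fullKO the change over days 0 to 4 was called higher than in WT for 4 genes and lower for 1. Over all genes, 19.5% were called higher, 15.7% lower and 35.2% in either direction. With library totals alone, which moved the median of all genes by 0.13 here, 5 genes were called higher and 0 lower. Idi1 (0.53 ± 0.16, edgeR adjusted p = 0.00957) and Insig1 (0.32 ± 0.08, edgeR adjusted p = 0.0021) led the higher genes. Both fell over these days, but less in fullKO (−0.57 and −0.40) than in WT (−1.10 and −0.72). Srebf2 was lower (−0.20 ± 0.07, edgeR adjusted p = 0.0296). The count was 3 in place of 5 without WT replicate 2 of day 4 or fullKO replicate 2 of day 0, since Idi1 (0.39 and 0.45) and Srebf2 (−0.19 and −0.17) then missed the threshold. Srebf2 also missed it without WT replicate 3 of day 0 (−0.16), WT replicate 3 of day 4 (−0.16), fullKO replicate 1 of day 0 (−0.18) or fullKO replicate 1 of day 4 (−0.16). From day 0 to day 2, 0 were called higher in fullKO and 3 lower, where 15.7% of all genes were called higher, 12.8% lower and 28.6% in either direction. The 3 were Nsdhl (−0.38 ± 0.10, edgeR adjusted p = 0.00272), Srebf2 (−0.30 ± 0.07, edgeR adjusted p = 0.000953) and Lss (−0.17 ± 0.07, edgeR adjusted p = 0.0452). The call of Lss was lost with DESeq2 (−0.16) and when any 1 of 7 libraries was left out, at −0.19 to −0.14: WT replicate 2 of day 0, WT replicate 2 or 3 of day 2, fullKO replicate 1 or 2 of day 0, and fullKO replicate 1 or 3 of day 2.

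Most other enzymes of the pathway were also higher in alphaKO on day 4. Of 16 further enzymes listed for the mevalonate and sterol arms, 15 were called higher than WT and 0 lower, where 28.7% of all genes were called higher and 24.0% lower, with a median log2 fold change of 0.50 against 0.06 over all genes tested. Acat2, which makes acetoacetyl-CoA, was higher by 0.98 ± 0.05 (edgeR adjusted p = 1.08e-20), Dhcr7, which makes cholesterol in the final reduction, by 0.83 ± 0.06 (edgeR adjusted p = 8.23e-16) and Mvd, mevalonate diphosphate decarboxylase, by 0.79 ± 0.06 (edgeR adjusted p = 8.01e-15). Tm7sf2, a sterol reductase, was higher by 0.66 ± 0.10 (edgeR adjusted p = 2.47e-07). The enzyme not called was Ggps1 (−0.13 ± 0.07, edgeR adjusted p = 0.102), which makes geranylgeranyl diphosphate, a branch that leads away from sterols.

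In fullKO on day 4, 8 of the 16 further enzymes were called higher than WT and 2 lower, where 25.1% of all genes were called higher, 24.5% lower and 49.6% in either direction, with a median of 0.17 against 0.02 over all genes. Dhcr7 (0.50 ± 0.06, edgeR adjusted p = 4.46e-09), Pmvk, phosphomevalonate kinase (0.38 ± 0.08, edgeR adjusted p = 5.8e-05), Ebp, a sterol isomerase (0.38 ± 0.09), and Acat2 (0.35 ± 0.05, edgeR adjusted p = 3.75e-07) were higher. Msmo1, a sterol methyl oxidase, was lower (−0.34 ± 0.04, edgeR adjusted p = 1.21e-09), and so was Hsd17b7, a 3-ketosteroid reductase (−0.18 ± 0.07, edgeR adjusted p = 0.0242). With library totals alone, which moved the median of all genes by 0.11 in this comparison, 10 were higher and 1 lower, and Hsd17b7 was at −0.08 and not called. Between the knockouts, 13 of the 16 were higher in alphaKO and 0 lower on day 4 (11 and 0 with library totals), where 17.4% of all genes were called higher and 15.4% lower, with a median of 0.37 against 0.02 over all genes. Hsd17b7 and Tm7sf2 differed most, each by 0.78 (SE 0.07 and 0.10, edgeR adjusted p = 3.56e-13 and 1.49e-08), followed by Acat2 (0.64 ± 0.05) and Mvd (0.61 ± 0.06).

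On the earlier days the further enzymes were mixed, apart from fullKO on day 0, where the calls were mainly higher. In alphaKO 5 of the 16 were higher and 2 lower than WT on day 0 (5 and 1 with library totals, 5 and 3 with DESeq2), and 5 were higher and 1 lower on day 2, where 38.6% and 40.2% of all genes were called in either direction on these days. In fullKO 9 were higher and 1 lower on day 0, where 16.2% of all genes were called higher, 17.7% lower and 33.9% in either direction. On day 2, 1 was higher and 5 lower in fullKO, where 47.6% of all genes were called in either direction. The alphaKO counts on both days and the fullKO count on day 2 lie near the shares called in either direction. The fullKO calls of Mvd (0.15) and Hsd17b7 (0.21) on day 0 were lost with RLE scaling and with DESeq2. That of Mvd was also lost with library totals (0.15). The medians lay between −0.06 and 0.17, and that of alphaKO on day 0 turned from −0.01 with TMM to 0.01 with library totals.

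**Figure D4:**
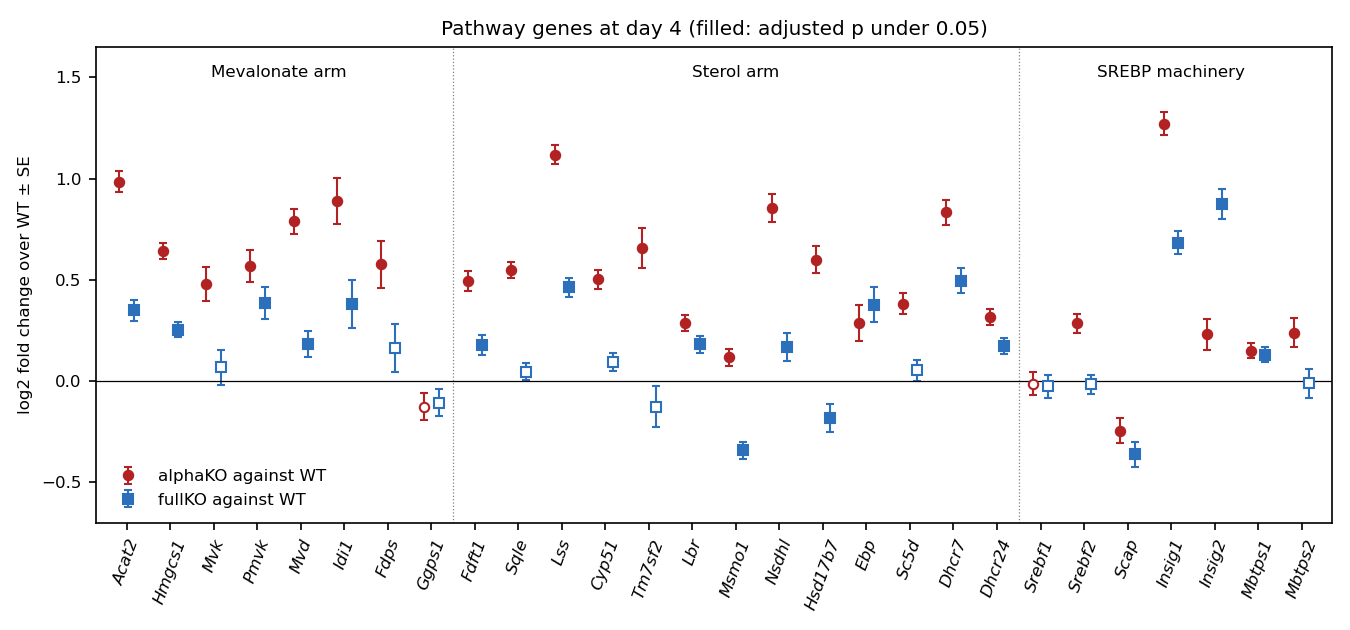
Log2 fold change over WT on day 4 with its SE (y axis) for the listed genes of the mevalonate arm, the sterol arm and the SREBP machinery (x axis), in alphaKO and fullKO; filled symbols have an edgeR adjusted p under 0.05. In alphaKO all enzymes but Ggps1 lie above 0 and are filled, whereas in fullKO Msmo1 (−0.34) and Hsd17b7 (−0.18) lie below 0 and are filled.

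Among the partners of Srebf2 and Insig1, Insig2, the paralog of Insig1, was higher than WT in both knockouts on each day, and more so in fullKO. On day 4 it stood at 32.8, 29.1 and 34.5 CPM in alphaKO and at 49.7, 49.99 and 50.8 CPM in fullKO, against 26.8, 27.8 and 27.5 CPM in WT. The 3 genotypes did not overlap, with fullKO highest: this order differs from that of Insig1, for which alphaKO was highest. The log2 fold changes over WT on days 0, 2 and 4 were 0.75, 0.47 and 0.23 in alphaKO and 1.13, 0.95 and 0.87 in fullKO. Against fullKO, alphaKO was at −0.64 ± 0.07 on day 4 (edgeR adjusted p = 6.59e-10).

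Scap, which escorts SREBP to the Golgi, was lower than WT on day 4 in alphaKO (−0.25 ± 0.06, edgeR adjusted p = 0.000601) and fullKO (−0.36 ± 0.06, edgeR adjusted p = 2e-06). Srebf1, the gene of SREBP1, was called in neither, with −0.01 ± 0.06 in alphaKO and −0.03 ± 0.06 in fullKO, which turned to 0.04 and 0.08 with library totals, not called. The proteases that release SREBP, Mbtps1 and Mbtps2, were higher in alphaKO by 0.15 ± 0.04 and 0.24 ± 0.07. In fullKO Mbtps1 was higher by 0.13 ± 0.04 and Mbtps2 was not called (−0.01 ± 0.07; 0.10 with library totals).

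Per kilobase of exon, Hmgcs1 stood on day 0 at a mean of 54.0 CPM per kb in alphaKO and 62.0 in fullKO against 61.5 in WT, level with Srebf2 in alphaKO (53.9) and above it in fullKO (53.0) and WT (46.8). Idi1 was the least abundant of the 7, at 5.31 and 5.37 against 5.97. On day 4 Hmgcs1 reached 122.5 CPM per kb in alphaKO and 93.5 in fullKO, against 78.5 in WT, and Idi1 stood at 5.14 and 3.62 against 2.79. Exon length was taken over all annotated transcripts, so a gene with rarely used exons would be understated. Lss had the longest of the 7, with 10787 bases, and the use of its exons was not measured. The counter's handling of reads that match several loci is not given in the sources used here. Genes overlapping the 7 took few reads: the highest had a mean count of 12.2 per library, against 6066 for Srebf2, which it overlaps.

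Ordered by mean level over the 9 groups, alphaKO on day 4 came out highest for 6 of the 7 genes, and the exception was Idi1, highest in alphaKO on day 2 (25.1 ± 2.33 CPM). WT on day 4 was lowest for Insig1, Idi1, Lss and Nsdhl. Hmgcs1 and Sqle were lowest in alphaKO on day 0, at 248 ± 1.62 and 140.1 ± 3.24 CPM, and highest in the same cells on day 4, at 563 ± 16.3 and 238 ± 2.02 CPM (SD, n = 3 each). Srebf2 had the narrowest span in proportion to its level, from 304 ± 15.9 CPM in fullKO on day 2 to 421 ± 11.3 CPM in alphaKO on day 4, and its libraries overlapped between neighbours in that order at 6 of 8 steps. For Idi1 every step from alphaKO on day 2 down to alphaKO on day 4 overlapped, and fullKO and then WT on day 4 stood apart below.

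Across the 9 group means of log2 CPM, a description over points that share libraries and scaling, the genes fell into no single pattern. Lss and Nsdhl (Pearson r = 0.89), Insig1 and Lss (r = 0.89) and Hmgcs1 and Sqle (r = 0.87) were the most alike. Srebf2 and Hmgcs1 were the least alike (r = −0.05), and Insig1 and Hmgcs1 were at r = 0.11. Outside the pathway lists, the genes most like Insig1 among 8573 searched were St8sia1 (r = 0.95), Tenm4 (0.93), Nmral1 (0.93), Rpgr (0.92) and Abi2 (0.92). Those most like the mean of the 7 were Hmgn2 (r = 0.87), Zfp101 (0.85), Phf6 (0.84), Fabp5 (0.82) and Lpl (0.82). Lpl, lipoprotein lipase, averaged 43.3 ± 1.19 CPM in alphaKO and 23.4 ± 2.14 CPM in fullKO against 5.74 ± 0.736 CPM in WT on day 4 (SD, n = 3 each).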

How the data were processed

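RNA extracted with RNeasy was made into libraries with the KAPA Stranded mRNA-Seq kit, per the labels' protocols. The authors deposited a table of raw read counts per gene; the submitters' processing notes name FastQC, STAR 2.7.1a and mm10. Which tool counted the reads, with what strand setting and annotation, was not given in the sources used here. Symbols came from GENCODE M21, which matched 55230 of 55471 gene IDs.

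Counts were tested with edgeR 4.0.16 in R 4.3.3: TMM scaling, edgeR's filter on low counts, 1 mean per group in a single fit of 26 libraries, quasi-likelihood tests of 22 comparisons, and Benjamini-Hochberg adjustment over 18412 genes at 0.05. Fold changes are log2, with SE. DESeq2 1.42.0 and other scalings, filters and left-out libraries were alternatives. Likeness was searched over genes averaging 5 CPM or more, with an SD of log2 group means of at least 0.3. No 2 libraries of a group agreed within sampling noise. Precision is limited by the spread between libraries as well as by depth, which was 13537267 to 20569706 counts per library.

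The 7 genes and the gene lists were chosen with earlier results of these data known. Some genes of these lists are not reported here, and the counts leave them out. Named beside the 7 are Insig2, all genes of the SREBP machinery and up to 4 called genes per list with the largest change. Ggps1, Hsd17b7 and Scd2, as exceptions to the direction of most calls in their lists, were named after their values were seen.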

Additional observations from a re-analysis of the deposited data

Results flagged for a closer look

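A gene is listed here where its change from day 0 differed between a knockout and WT by the interaction contrast in edgeR's quasi-likelihood test, with an adjusted p under 0.05 over all genes. Positive values mean a change more upward in the knockout, on the log2 scale.

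Over days 0 to 4, alphaKO exceeded WT by 1.25 for Lss, 1.06 for Idi1, 1.03 for Insig1, 0.85 for Sqle, 0.83 for Hmgcs1 and 0.78 for Nsdhl. By day 2 the differences were 0.54 for Idi1, 0.42 for Hmgcs1, 0.40 for Sqle and 0.30 for Lss. The changes of Sqle, Hmgcs1 and Lss start from day 0 levels that were called below WT in alphaKO.

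From day 0 to day 4, fullKO exceeded WT by 0.53 for Idi1, 0.32 for Insig1, 0.24 for Lss and 0.24 for Hmgcs1. Of these Idi1, Insig1 and Lss fell in both genotypes, less in fullKO, whereas Hmgcs1 rose in both. Srebf2 differed by −0.20. By day 2 it differed by −0.38 for Nsdhl, −0.30 for Srebf2 and −0.17 for Lss. The fullKO contrasts rest on 2 libraries at day 0.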

How the results depend on the processing

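All 7 calls of alphaKO against WT and of alphaKO against fullKO on day 4 kept their direction and threshold under all alternatives run. Counts of called genes out of 7 that moved by over 1.5 times were WT day 2 against day 0 (5 with library totals, 3 with TMM), fullKO day 2 against day 0 (3 with library totals, 6 with TMM) and fullKO against WT on day 2 (2 at an adjusted p under 0.01, 4 at 0.05). Leaving out single libraries gave 2 to 3 genes for fullKO against WT on day 0, 2 to 4 on day 2 and 3 to 5 on day 4, and 3 to 5 for the fullKO difference in change over days 0 to 4. Of 1232 values under other settings 1156 kept side and sign, 45 lost and 12 gained a call and 19 changed sign; of 1050 values with a library left out 968 kept both. Over all genes, 3521 were called for alphaKO against fullKO on day 0 without fullKO replicate 1, against 5344 with it.

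With library totals these values changed sign, of which Srebf2 in fullKO over days 0 to 4, Lss in fullKO over days 0 to 2 and Sqle in WT over days 0 to 4 had been called lower with TMM: Hmgcs1 in fullKO against WT on day 0 (−0.0085), Srebf2 in fullKO against WT on day 4 (0.089), Idi1 in alphaKO against fullKO on day 0 (0.028); over days 0 to 2 Srebf2 and Idi1 in WT (0.16 and 0.063), Insig1 in alphaKO (0.091) and Lss in fullKO (0.058); over days 0 to 4 Sqle in WT (0.068), Idi1 in alphaKO (0.15) and Srebf2 in fullKO (0.13); Nsdhl in fullKO over days 2 to 4 (0.032) and its difference in change from WT over days 0 to 4 (0.11). RLE and DESeq2 turned Hmgcs1 in fullKO against WT on day 0 (−0.0080 each). With no filter and in fits of the compared groups alone, the fullKO difference in change of Insig1 over days 0 to 2 turned (−0.014 and −0.0060), and in fits of the compared groups Srebf2 in WT over days 0 to 4 (−0.014) and the fullKO difference in change of Nsdhl over days 0 to 4 (0.0185).

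Leaving out single libraries turned the sign, uncalled each time, of Hmgcs1 (−0.010 to 0.030) in fullKO against WT on day 0, Idi1 on day 2 (−0.031 to 0.050) and Srebf2 on day 4 (−0.062 to 0.018), of Idi1 in alphaKO against fullKO on day 0 (−0.11 to 0.11), of Srebf2 (−0.080 to 0.0145) and Nsdhl (−0.048 to 0.10) in WT over days 0 to 2, of Idi1 in alphaKO over days 0 to 4 (−0.10 to 0.045) and in fullKO over days 0 to 2 (−0.059 to 0.16), and of the fullKO difference in change of Insig1 over days 0 to 2 (−0.047 to 0.088) and Nsdhl over days 0 to 4 (−0.057 to 0.046). The cause was not tested.

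Same-numbered replicates did not deviate together (r from −0.13 to 0.14), so the main tests did not pair libraries by number. With 2 or 3 pairs per comparison, this cannot show whether a number marks a shared culture. With the replicate number as a block, Nsdhl in alphaKO against WT on day 2 (0.16) and the alphaKO difference in change of Insig1 over days 0 to 2 (0.19) were called, and the fullKO difference in change of Insig1 over days 0 to 2 turned sign (−0.0067). Small changes of Idi1, with a mean of 311 counts per library, are limited by depth.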

Other observations

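Fatty acid synthesis genes, many of them known SREBP1 targets, were also higher in alphaKO on day 4: 9 of 9 listed genes were called higher than WT, where 28.7% of all genes were, with a median log2 fold change of 0.47 against 0.06 over all genes tested. Elovl6, a fatty acid elongase, was higher by 1.26 ± 0.04, Scd1, a stearoyl-CoA desaturase, by 0.89 ± 0.05, Fads2, a desaturase of polyunsaturated fatty acids, by 0.65 ± 0.05, and Acaca, acetyl-CoA carboxylase, by 0.59 ± 0.05. In fullKO 4 of 9 were higher and 1 lower, where 25.1% of all genes were called higher and 24.5% lower, with a median of 0.06. Elovl6 (1.07 ± 0.04) and Scd1 (0.80 ± 0.05) led the list there too, followed by Acss2, an acetyl-CoA synthetase (0.45 ± 0.12), and Acaca (0.27 ± 0.05), while Scd2 was lower (−0.12 ± 0.04). With library totals alone 7 of 9 were higher and 0 lower in fullKO, with Scd2 at −0.01 and not called. Between the knockouts Elovl6 differed by 0.19 ± 0.04 and was called, and Scd1 by 0.08 ± 0.05 and was not (edgeR adjusted p = 0.00031 and 0.199).

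Of 5 listed genes of sterol uptake and trafficking, 3 were higher and 1 lower than WT in alphaKO on day 4, and 2 were higher and 2 lower in fullKO (3 and 2 with library totals alone). Over all genes 52.7% were called in either direction in alphaKO and 49.6% in fullKO, so nothing is read from the counts of this list and the 2 that follow, and the values of single genes are given. Lrp8, a reelin and apolipoprotein E receptor, stood at 1.02 ± 0.09 in alphaKO and 0.24 ± 0.10 in fullKO, and Stard4, a sterol carrier, at 0.80 ± 0.06 in alphaKO and 0.31 ± 0.06 in fullKO. Vldlr was 0.30 ± 0.11 above WT in alphaKO and at −0.77 ± 0.12 in fullKO. Npc2, a lysosomal cholesterol carrier, was lower in both, at −0.33 ± 0.05 in alphaKO and −0.51 ± 0.05 in fullKO.

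Of 7 genes of sterol efflux and LXR signalling, 1 was higher and 4 lower in alphaKO on day 4, and 1 was higher and 2 lower in fullKO. Abca1, a cholesterol exporter, was at 0.65 ± 0.09 in alphaKO and −0.35 ± 0.09 in fullKO. Apoe was lower in alphaKO (−0.71 ± 0.07), with Abcg1 (−0.46 ± 0.18) and Nr1h2 (−0.31 ± 0.07); in fullKO Soat1, which esterifies cholesterol, was lower (−0.32 ± 0.04) and Mylip, a ubiquitin ligase, was higher (0.48 ± 0.13). Of 4 listed genes of protein degradation at the endoplasmic reticulum, 2 were higher and 1 lower in alphaKO, and 1 was higher and 1 lower in fullKO (2 and 0 with library totals alone). Faf2 was lower in both, at −0.22 ± 0.05 in alphaKO and −0.17 ± 0.05 in fullKO (−0.06 and not called with library totals). March6, a ubiquitin ligase, was higher in both, at 0.33 ± 0.05 in alphaKO and 0.19 ± 0.05 in fullKO. Rnf145 was the other gene higher in alphaKO, at 151, 150.5 and 148 CPM against 119, 132.5 and 129 CPM in WT. In fullKO its log2 fold change was −0.04 and not called (0.06 and not called with library totals).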
